A study of Mus musculus with 20 samples.

Results

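The 34 genes described here make up the core of the NF-kB pathway together with well-known NF-kB target genes. They were listed by gene symbol, with earlier results of these data known: 5 NF-kB subunits, 6 inhibitor proteins of the IkB family, 5 kinases, 9 adaptors and ubiquitin enzymes, 5 other target genes, and 3 ligands with 1 receptor. All 34 were found among the 39017 Ensembl genes of the RNA-sequencing table. A total of 26 genes reached a mean of 1 FPKM (counts per kb of exon and per M counts of the library) and were tested, among 11339 such genes. *Relb*, *Rel*, *Bcl3*, *Traf1*, *Gadd45b*, *Ier3*, *Cd40* and *Lta* did not, and are given by their values and by a fit without this filter.

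Marrow RNA was sequenced from recipients of T-cell acute lymphoblastic leukemias (T-ALLs) that arose in C57Bl/6 x 129Sv/Jae F1 mice after infection with the MOL4070LTR retrovirus, an insertional mutagen (IM). According to the methods of the study, the infected donors were of more than one genotype, and the leukemias were passed to irradiated wild-type recipients of the same cross. The labels give neither a donor genotype nor a treatment for a leukemia, so no groups of leukemias were formed. Each of the 9 leukemias (20M, 2M, 5C, 73A, 73M, 78A, 8633, JW14 and JW81) was 1 primary leukemia with 2 libraries, and the table names one column VEH and the other DEX. What these letters stand for is not given in the sources used here, and the columns are called by their names. Whole marrow was used, so host cells remain in it, and fewer cells of a type cannot be told apart from less RNA per cell.

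NF-kB transcription factors are dimers of the products of *Rela*, *Relb*, *Rel*, *Nfkb1* and *Nfkb2*. In resting cells IkB proteins hold them in the cytoplasm. Signals from tumor necrosis factor receptors, Toll-like receptors or the antigen receptor activate the IkB kinase complex (*Chuk*, *Ikbkb* and *Ikbkg*), which marks IkB for degradation and frees the dimers, while the kinase encoded by *Map3k14* starts a second, slower route through *Nfkb2* and *Relb*. The dimers switch on their own brakes, among them *Nfkbia* and *Tnfaip3*, so that levels of these brakes are often read as a trace of past activity. In T cells the pathway controls survival and cytokine expression, and glucocorticoids are known to restrain it.

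The 18 libraries held 8226528 (DEX of JW14) to 201222288 counts (VEH of 73M), with a median of 24451898.5. The DEX library of 73M held 16134301 counts. For 1 kb of exon, a floor of 3 counts was worth 0.0149 to 0.365 FPKM, depending on the library; this covers counting error only. In 5 libraries (VEH of 5C, DEX of 20M, 73M, JW14 and JW81) ribosomal RNA genes held 21.6 to 64.05 counts per M, and in the others at most 0.00497. Since these libraries lie mostly on the DEX side, results are also given with a term for them and for the 4 leukemias without one. As a check of the column names, 6 of 8 glucocorticoid-induced genes (*Tsc22d3*, *Fkbp5*, *Klf9*, *Ddit4*, *Zbtb16* and *Dusp1*) were higher in DEX columns, each in 9 of 9 leukemias, with log2 changes of 0.94 to 1.61. *Per1* and *Sgk1* had log2 changes of 0.81 and 0.31 and did not pass in edgeR (adjusted p = 0.0895 and 0.242). They were lower in DEX columns in 2 and 3 of 9 leukemias. The mean log2(FPKM + 1) of 12 T lineage genes was 4.38 to 5.83 in VEH and 4.36 to 5.72 in DEX libraries. Of these, *Thy1*, *Lck* and *Cd3d* were at 50.9 FPKM or more in each of the 18 libraries, while *Cd8a*, *Cd7* and *Cd4* were as low as 0.0334, 0.0928 and 1.23 FPKM in some. For 11 myeloid genes it was 0.64 to 3.07 in VEH and 0.54 to 2.78 in DEX libraries, with *Elane* at 0 in at least 1 library of each kind and *Lyz2* at 5.63 to 404.01 FPKM over the libraries, and for 7 neutrophil genes it was 2.21 to 8.20 in VEH and 1.52 to 7.68 in DEX libraries. *Cd5* of the T lineage list and *Itgam* of the myeloid list were lower in DEX columns (log2 changes of -0.62 and -0.47), and none of the 7 neutrophil genes passed, with 2 at an unadjusted p under 0.05 in edgeR and 1 called by DESeq2. Of the other marker lists (1 B lineage, 5 macrophage, 6 erythroid, 2 NK and 1 endothelial gene tested) no gene passed in edgeR or DESeq2, with 1 NK and the endothelial gene at an unadjusted p under 0.05.

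Many members are known as NF-kB targets, and their promoters were searched for the sequence that NF-kB dimers prefer. RefSeq promoters of GRCm38.p6, from 250 bases before to 50 bases after the transcription start, were found for 28 of the 34 genes; *Cd40*, *Ikbkb*, *Nfkb1*, *Nfkbiz*, *Relb* and *Tnfaip8* had no entry. The kappaB consensus of 10 bases was searched on both strands. It was present in 12 of the 28 genes (42.9%), against 5.14% of the 27025 genes of the promoter table. The 12 were *Nfkb2*, *Rel*, *Nfkbia*, *Nfkbid*, *Nfkbie*, *Bcl3*, *Traf3*, *Cyld*, *Tnfaip3*, *Tnip1*, *Ier3* and *Ltb*. Targets were chosen as members by their known function, so a high share is no independent result. A match was present in 3 of the 5 promoters of genes that were higher in DEX columns, in 2 of 7 of those that were lower and in 7 of 16 of the others. A match is a run of letters and not evidence of binding. The 5 genes with a match that also differed between DEX and VEH columns are shown, in stretches of 30 bases from 5′ to 3′ in the direction of the gene, with matched bases in capitals.
*Nfkbia*, chr12:55492657-55492686, minus strand, positions -29 to -20 from the start: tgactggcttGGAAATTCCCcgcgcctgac
*Tnfaip3*, chr10:19015516-19015545, minus strand, 10 bases from -125: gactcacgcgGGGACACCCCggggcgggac
*Tnfaip3*, chr10:19015403-19015432, minus strand, -12 to -3: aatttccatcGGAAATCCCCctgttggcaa
*Tnip1*, chr11:54962978-54963007, minus strand, -58 to -47, where 3 matches overlap: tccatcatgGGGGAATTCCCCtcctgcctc
*Nfkb2*, chr19:46304689-46304718, plus strand, -39 to -29, where 2 matches overlap: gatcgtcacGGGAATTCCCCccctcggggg
*Nfkb2*, chr19:46304716-46304745, plus strand, -11 to -2: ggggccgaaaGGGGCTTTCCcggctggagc
*Nfkbid*, chr7:30422170-30422199, plus strand, 10 bases up to -217: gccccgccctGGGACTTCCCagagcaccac
*Nfkbid*, chr7:30422215-30422244, plus strand, -181 to -172: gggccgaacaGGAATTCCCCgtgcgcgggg
The *Nfkb2* stretches also lie in an annotated exon of other *Nfkb2* transcripts and of the overlapping gene AC114539.1, and the second *Tnfaip3* stretch reaches a *Tnfaip3* exon. The others lie in no exon of GENCODE M21. Other *Nfkb2* starts hold 2 more sites, which are not printed, and the site at 11 to 20 from one start is also seen before another start.

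**Figure D1:**
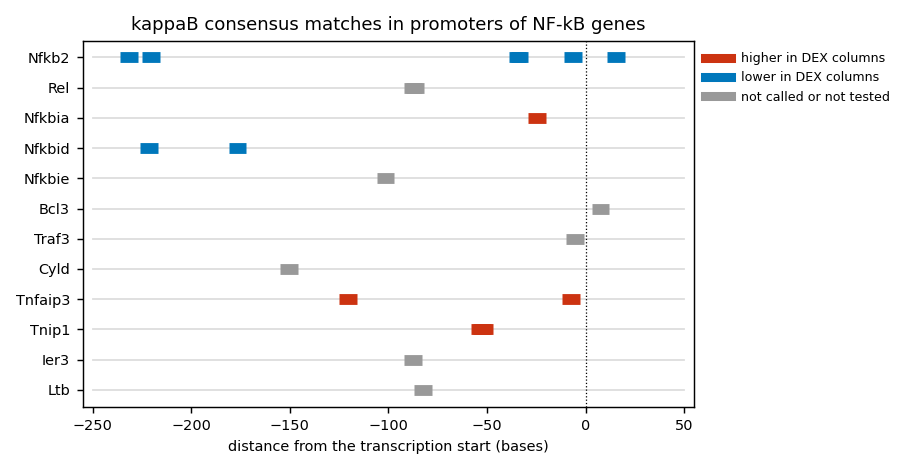
Matches to the kappaB consensus in the promoters of the 12 NF-kB genes that hold one; the horizontal axis is the distance from the transcription start in bases, and each block is a match, coloured by the gene's change between DEX and VEH columns. Matches of *Nfkbia*, *Tnip1* and *Tnfaip3*, which were higher in DEX columns, and of *Nfkb2* and *Nfkbid*, which were lower, lie before the start, apart from the *Nfkb2* match at 11 to 20.

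The question of how far single T-ALLs differ in this pathway was addressed first. The NF-kB genes were not expressed at one common level: *Nfkbia* averaged 34.5 FPKM over the 9 leukemias and *Traf1* 0.0803 FPKM. Between leukemias, 20 of the 26 genes tested (76.9%) differed by more than the spread left within leukemias (edgeR quasi-likelihood F test, adjusted p under 0.05), beside 82.5% of all genes tested. The 6 that did not pass were *Rela*, *Nfkbia*, *Nfkbib*, *Chuk*, *Map3k14* and *Cyld*, with adjusted p of 0.0762 to 0.620. The mean log2(FPKM + 1) over all 34 genes was 2.43 ± 0.17 (SD, n = 9 leukemias), from 2.16 in JW14 and 2.19 in 8633 to 2.62 in 2M.

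**Figure D2:**
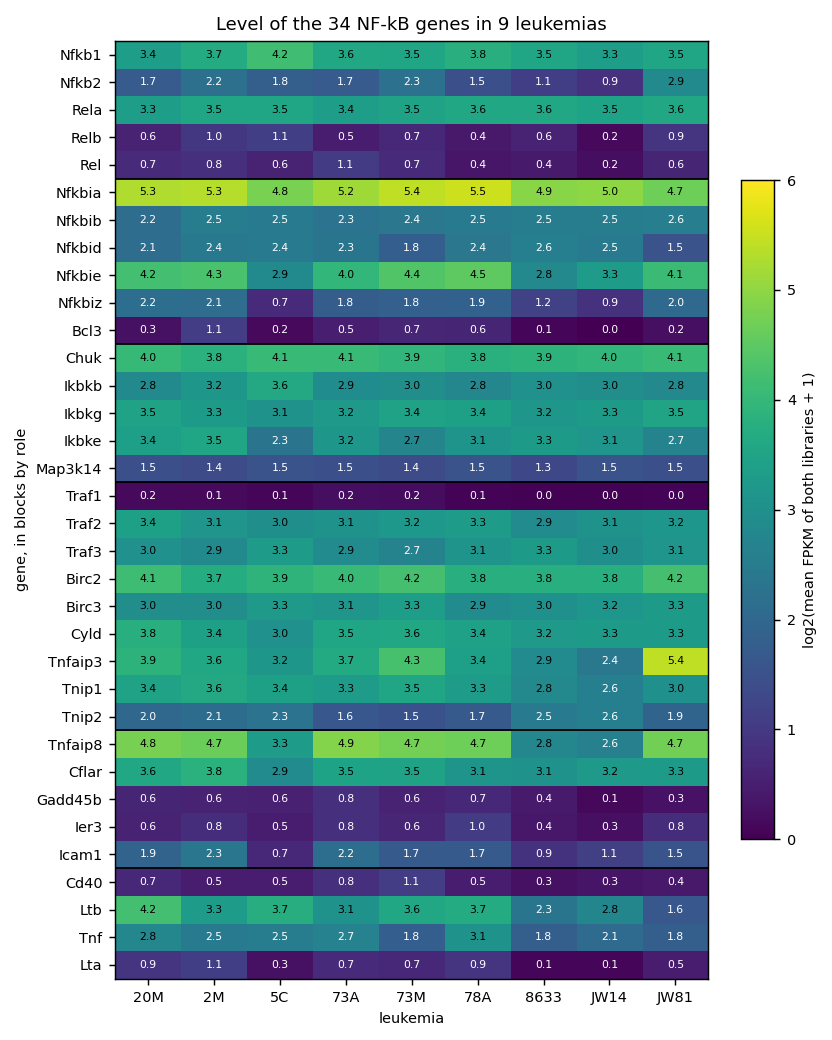
Level of each of the 34 NF-kB genes in the 9 leukemias, as log2 of the mean FPKM of both libraries plus 1, in blocks by role (subunits, inhibitors, kinases, adaptors and ubiquitin enzymes, other targets, ligands and receptor). *Rela*, *Chuk* and *Map3k14* are even across the row, while *Tnfaip8* is low in 5C, 8633 and JW14 and *Tnfaip3* is highest in JW81.

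Among the subunits, *Rela* and *Nfkb1* were the abundant ones and *Relb* and *Rel* were scarce. *Rela*, which encodes the transactivating subunit p65, averaged 10.3 ± 0.742 FPKM (SD, n = 9) with 20M (9.15) and JW81 (11.1) at the ends, and *Nfkb1*, the gene of the p105 precursor of p50, at 11.5 ± 2.31 FPKM, from 9.19 in JW14 to 16.9 in 5C. *Nfkb2* (ENSMUSG00000025225, chromosome 19 of GRCm38, 46304320 to 46312385), the gene of the p100 precursor of p52, was at 0.816 FPKM in JW14, 1.16 in 8633 and 1.77 in 78A. In 20M, 73A, 5C, 2M and 73M it was at 2.28 to 3.82 FPKM, and JW81 had the highest level at 6.31 FPKM, 7.73 times that of JW14 (adjusted p between leukemias = 8.77e-07). Exons of AC114539.1 and *Psd* cover 18.1% of the *Nfkb2* exons. *Psd* was at 0.0743 FPKM, and AC114539.1 has no value. *Relb*, the partner of p52, was at 0.116 FPKM in JW14 to 1.16 in 5C, a ratio of 9.95, and *Rel*, the subunit prominent in activated lymphocytes, at 0.171 FPKM in JW14 to 1.08 in 73A, a ratio of 6.32 (adjusted p in the fit without a filter = 2.76e-06 and 5.88e-05). JW14 was lowest for each of *Nfkb1*, *Nfkb2*, *Relb* and *Rel*, but not for *Rela*.

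The inhibitors ranged from the most abundant member to one that was near absent. *Nfkbia* (ENSMUSG00000021025, chromosome 12, 55489410 to 55492647), which encodes IkBalpha, was at 24.5 FPKM in JW81 to 45.5 in 78A. *Nfkbie*, encoding IkBepsilon, divided the leukemias more: 8633, 5C and JW14 had 6.09, 6.23 and 8.91 FPKM, the other 6 had 14.6 to 21.8 (adjusted p = 0.000196). *Nfkbiz*, a nuclear member of the family that can act as a coactivator, showed the same 3 leukemias at the low end, with 0.633 FPKM in 5C, 0.815 in JW14 and 1.22 in 8633 against 2.39 to 3.51 in the others, a ratio of 5.55 between highest and lowest (adjusted p = 8.42e-06). *Nfkbid*, another nuclear IkB, had a different order, with 1.89 FPKM in JW81 and 2.49 in 73M as the lowest and 5.06 in 8633 as the highest level (adjusted p = 0.00399). *Nfkbib* (IkBbeta) was at 3.44 to 4.91 FPKM. Exons of *Ccer2* and *Sirt2*, at 0.0456 and 5.7 FPKM, cover 16.4% of the *Nfkbib* exons. *Bcl3*, a nuclear cofactor of p50 and p52, had no counts in either library of JW14, which allows up to 0.0321 FPKM in the VEH and 0.147 in the DEX library; 8633 had 0.0715 FPKM and 2M the highest level (adjusted p without a filter = 9.2e-08).

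Of the 5 kinase genes, *Ikbkb*, *Ikbke* and *Ikbkg* differed between leukemias and *Chuk* and *Map3k14* did not pass. Over the 9 leukemias the highest and lowest level differed by a factor of 1.20 for *Chuk* (IKKalpha), 1.30 for *Map3k14* (NIK), 1.39 for *Ikbkg* (NEMO, the regulatory subunit), 1.91 for *Ikbkb* (IKKbeta) and 2.65 for *Ikbke*, an IKK-related kinase. *Ikbkb* reached 11.2 FPKM in 5C, whereas the rest had 5.89 to 7.98 FPKM (adjusted p = 0.000103). *Ikbke* went the opposite way in 5C, where it was lowest at 3.95 FPKM, while 2M had 10.5 FPKM (adjusted p = 0.00407).

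Among the adaptors and ubiquitin enzymes, *Birc2* (14.7 ± 2.29 FPKM) and *Birc3* (7.69 ± 0.954), neighbours on chromosome 9 that encode the ubiquitin ligases cIAP1 and cIAP2, varied by factors of 1.47 and 1.42 between leukemias. *Traf2* and *Traf3*, the adaptors that tether these ligases to receptors and to NIK, varied by 1.49 and 1.61. *Cyld*, a deubiquitinase that limits the pathway, was at 7.24 FPKM in 5C to 12.7 in 20M. *Traf1*, an adaptor induced by NF-kB, stayed at 0.0165 to 0.171 FPKM. *Tnfaip3* (ENSMUSG00000019850, chromosome 10, 19000910 to 19015657), the gene of the ubiquitin-editing inhibitor A20, was at 4.25 FPKM in JW14 and 6.46 in 8633, at 8.05 to 18.2 in 6 leukemias and at 41.8 in JW81, a ratio of 9.83 (adjusted p = 0.0014). The value of JW81 came from its DEX library, as described below. *Tnip1*, whose product ABIN-1 works with A20, was lowest in JW14 (5.03 FPKM) and highest in 2M (11.2 FPKM), whereas *Tnip2* (ABIN-2) was highest in JW14 (4.98 FPKM) and lowest in 73M (1.84 FPKM).

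Among the other targets, *Tnfaip8* (ENSMUSG00000062210), a TNF-induced survival gene, was low in JW14 (5.16 FPKM), 8633 (5.87) and 5C (8.94), whereas the other 6 leukemias had 24.2 to 28.8 FPKM, a ratio of 5.58 (adjusted p = 3.92e-08). Of its exon bases, 12.7% are shared with C030005K06Rik, which was at 3.16 FPKM. *Icam1* (ENSMUSG00000037405, chromosome 9, 21015985 to 21028817), an adhesion molecule and classic NF-kB target, was lowest in 5C (0.625 FPKM), 8633 (0.833) and JW14 (1.21), followed by JW81 (1.93), and 2M had the highest level of 4.09 FPKM, a ratio of 6.54 (adjusted p = 6.19e-06). Exons of Gm47079, which has no value, cover 11.7% of the *Icam1* exons. *Cflar*, which encodes the caspase-8 regulator c-FLIP, was at 6.49 FPKM in 5C to 13.3 in 2M. *Gadd45b* and *Ier3*, stress-induced targets, were at 0.0966 to 0.771 and 0.194 to 1.05 FPKM and were lowest in JW14. In this set of leukemias, 5C, 8633 and JW14 were the 3 lowest for *Nfkbie*, *Nfkbiz*, *Bcl3*, *Tnfaip3*, *Cyld*, *Tnfaip8*, *Ier3*, *Icam1* and *Lta*, an order noticed in the values, while 5C was highest for *Nfkb1*, *Relb*, *Traf3*, *Chuk*, *Ikbkb* and *Map3k14*. The same 3 leukemias were also lowest for the T lineage list (4.37, 4.60 and 4.54) and for the mean over all genes tested (3.11, 3.07 and 3.08). In that mean JW81 was almost level with 5C, at 3.112 against 3.111. *Cyld*, *Chuk* and *Map3k14* did not pass the test between leukemias. Myeloid genes were also lowest in JW14 and highest in 73A. Over the 9 leukemias and 52 relations of a member with the T lineage or myeloid list, 0 passed after adjustment (exact permutation tests, lowest adjusted p = 0.0661 for Pearson's r and 0.0799 for Spearman's rho), while 11 were under 0.05 before adjustment with either measure. Among these, *Nfkbie* was higher with a higher T lineage list (r = 0.86, rho = 0.82, exact p = 0.00374 and 0.0108; r = 0.84 without 20M and 78A), and *Tnfaip8* with the myeloid list (r = 0.80, rho = 0.87, exact p = 0.00653 and 0.00451; r = 0.71 without JW14 and 73A). Whether other cells contribute to these levels was not tested.

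The ligand genes *Ltb*, *Tnf* and *Lta* lie side by side within chr17:35194439-35205351 and did not share one order of levels. *Ltb* (35194439 to 35196320), which encodes the membrane ligand lymphotoxin beta, was at 2.12 FPKM in JW81, 4.02 in 8633 and 5.76 in JW14, and reached 17.5 FPKM in 20M, a ratio of 8.29 (adjusted p = 2.96e-07). *Tnf* (ENSMUSG00000024401, 35199381 to 35202007), the gene of tumor necrosis factor, was at 2.47 FPKM in 73M, 2.52 in both 8633 and JW81, and 7.42 in 78A (adjusted p = 0.00149). *Lta*, lymphotoxin alpha, was at 0.0631 FPKM in JW14, 0.0682 in 8633 and 0.197 in 5C, and at 1.16 in 2M (adjusted p without a filter = 1.4e-06). *Cd40*, a receptor of antigen-presenting cells, was at 0.208 FPKM in 8633 to 1.13 in 73M (adjusted p without a filter = 0.000548). Of the 9 leukemias, 73M was also highest for the B lineage, macrophage and erythroid lists (1.07, 2.03 and 3.27). Between its VEH and DEX libraries *Cd40* went from 1.06 to 1.20 FPKM, and the B lineage list from 1.57 to 0.576. The part of host B cells or other host cells in the *Cd40* values was not tested.

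The second comparison was that of DEX with VEH columns within leukemias. Of the 26 genes tested, 13 (50%) had an adjusted p under 0.05 (edgeR quasi-likelihood test with leukemia as a block), against 13.0% of all 11339 genes. The changes ran in both directions: 6 genes were higher in DEX columns (6.22% of all genes) and 7 were lower (6.79%). Higher were the inhibitor *Nfkbia*, the adaptor and ubiquitin genes *Tnfaip3*, *Tnip1* and *Birc3*, the kinase subunit *Ikbkg* and the target *Tnfaip8*. Lower were *Tnf*, *Icam1*, *Nfkbid*, *Nfkb2*, *Map3k14*, *Cflar* and *Chuk*. The median log2 change over the 26 genes was 0.060, beside 0.0039 over all genes tested, and the median size of the change without its sign was 0.22 against 0.13. The mean log2(FPKM + 1) of the 26 genes tested changed by -0.024 ± 0.054 (SD, n = 9; lower in 6 of 9 leukemias), beside -0.024 ± 0.038 over all genes tested and -0.084 ± 0.075 for the T lineage list (lower in 8 of 9). Over all 34 genes it changed by -0.044 ± 0.050. With a term for the libraries with ribosomal RNA, 5 of the 26 genes (*Nfkb2*, *Tnip1*, *Cflar*, *Icam1* and *Tnf*) passed beside 4.10% of all genes, and in the 4 leukemias without such a library 3 (*Nfkb2*, *Tnfaip3* and *Map3k14*) beside 4.19%. In the 5 leukemias with such a library none of the 26 passed (0.132% of all genes did), with 12 at an unadjusted p under 0.05 in edgeR, beside 2477 of all 11339 genes, 6 of 7 neutrophil genes and 5 of 6 myeloid genes.

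**Figure D3:**
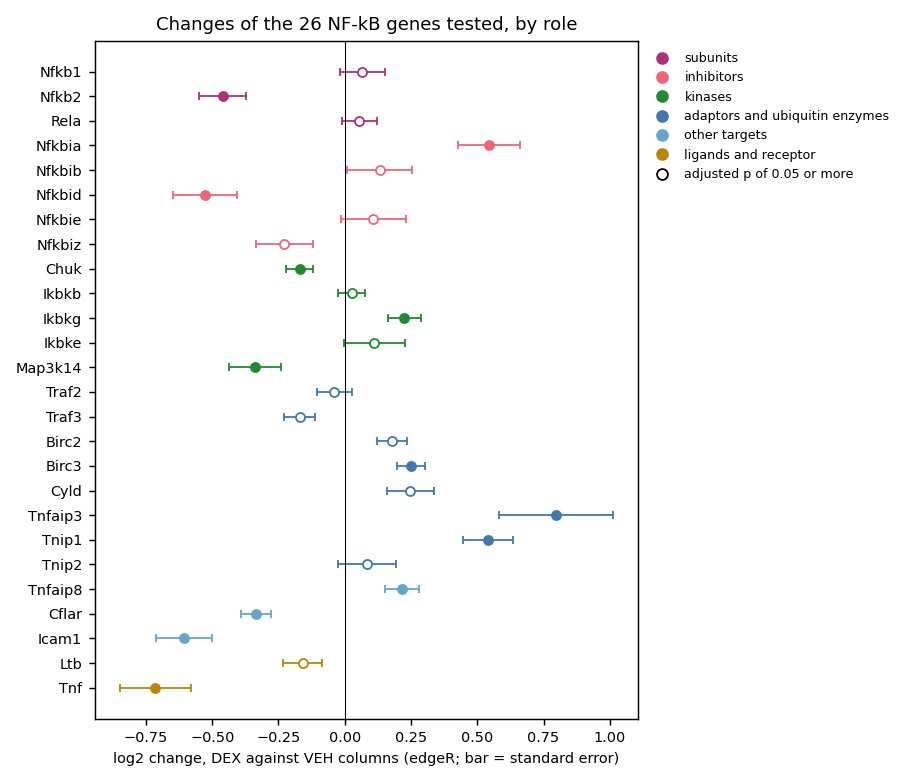
Log2 change between DEX and VEH columns of the 26 NF-kB genes tested, estimated in edgeR with leukemia as a block; points are estimates, bars standard errors, colours roles, and filled points have an adjusted p under 0.05. *Tnfaip3*, *Nfkbia* and *Tnip1* lie farthest to the right (0.80, 0.54 and 0.54) and *Tnf*, *Icam1* and *Nfkbid* farthest to the left (-0.71, -0.61 and -0.53).

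Of the 5 inhibitors of the IkB family that were tested, 1 was higher in DEX columns, 1 was lower and 3 did not pass. *Nfkbia*, whose promoter stretch is shown above, was at 22.2 to 38.9 FPKM in VEH libraries (median 27.7) and at 26.5 to 55.3 in DEX libraries (median 45.2). It was higher in DEX in 8 of 9 leukemias. The gain was largest in 73A (22.2 to 46.9 FPKM), 73M (28.6 to 55.3) and 2M (27.5 to 50.6), whereas 5C had 26.5 FPKM in both libraries, and the ranges overlapped. The fitted log2 change was 0.54 (SE 0.12, adjusted p = 0.0136), a fold change of 1.46. With the term for ribosomal RNA it was 0.50 (adjusted p = 0.0545) and in the 4 leukemias without such a library 0.64 (0.0613).

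*Tnfaip3* was at 4.53 to 12.9 FPKM in VEH libraries (median 8.10) and at 3.97 to 70.7 in DEX libraries (median 12.9). It was higher in DEX in 8 of 9 leukemias, JW14 being the exception (4.53 and 3.97 FPKM). In JW81 it went from 12.9 to 70.7 FPKM, a factor of 5.49, while in the other 7 leukemias the factor was 1.22 to 1.94. The fitted log2 change was 0.80 (SE 0.22, adjusted p = 0.0342), and 0.59 (adjusted p = 0.0184) when JW81 was left out. The adjusted p rose to between 0.0528 and 0.0763 when 20M, 2M, 73A, 73M, 78A or 8633 was left out, and to 0.109 with the term for ribosomal RNA.

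*Tnip1* (ENSMUSG00000020400, chromosome 11, 54910785 to 54962917) was at 4.09 to 9.47 FPKM in VEH libraries (median 7.53) and at 5.98 to 14.4 in DEX libraries (median 9.76). It was higher in DEX in 9 of 9 leukemias, from a factor of 1.03 in 5C to 1.82 in 73M. The log2 change was 0.54 (SE 0.094, adjusted p = 0.00627). This call was kept whichever leukemia was left out, and was lost in the 4 leukemias without ribosomal RNA libraries (log2 change 0.49, adjusted p = 0.0742). *Nfkbie*, *Nfkbib* and *Tnip2* had log2 changes of 0.11, 0.13 and 0.085 and did not pass.

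**Figure D4:**
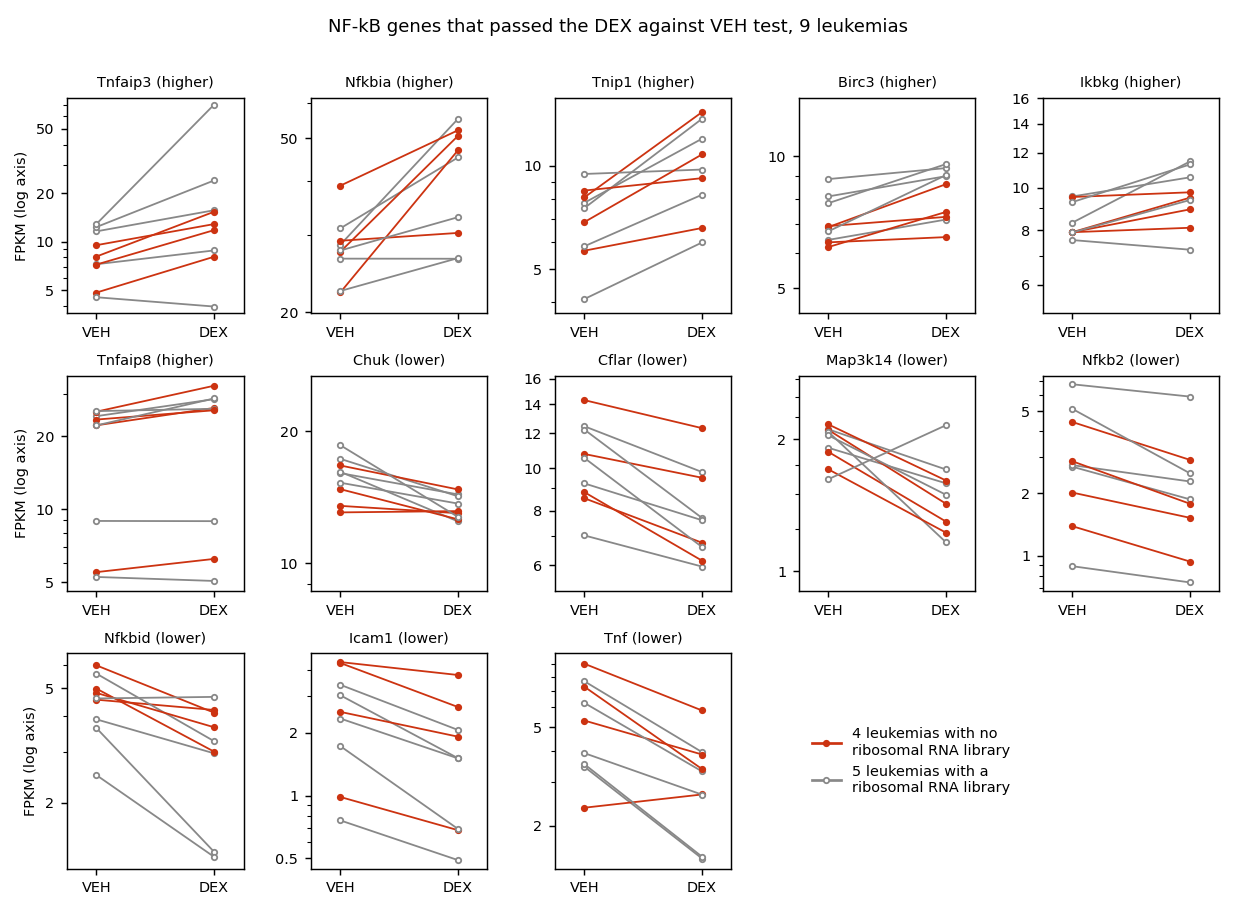
FPKM (log axis) in the VEH and DEX library of each of the 9 leukemias for the 13 NF-kB genes that passed the test; each line joins the 2 libraries of a leukemia, filled red points for the 4 leukemias with no ribosomal RNA library and open grey points for the 5 with one. Lines of *Tnip1* and *Birc3* all go up and those of *Nfkb2*, *Cflar* and *Icam1* all go down, and the ranges of both columns overlap in each of the 13 panels.

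*Nfkbid* (ENSMUSG00000036931, chromosome 7, 30421732 to 30428746) was lower in DEX in 8 of 9 leukemias, with 2.49 to 6.00 FPKM in VEH libraries (median 4.61) and 1.29 to 4.66 in DEX libraries (median 3.27). It fell most in 73M, from 3.63 to 1.35 FPKM, and was level in JW14 (4.61 and 4.66). The log2 change was -0.53 (SE 0.12, adjusted p = 0.0186), and -0.52 (0.0591) with the term for ribosomal RNA. *Nfkbiz* was at -0.23 (adjusted p = 0.164).

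Of the subunits, *Nfkb2* alone among those tested passed. It was at 0.890 to 6.74 FPKM in VEH libraries (median 2.74) and at 0.743 to 5.88 in DEX libraries (median 1.87), lower in DEX in 9 of 9 leukemias. As a ratio, the drop was largest in 73M, from 5.13 to 2.50 FPKM, and smallest in JW81, from 6.74 to 5.88 FPKM. The log2 change was -0.46 (SE 0.089, adjusted p = 0.00934), and it passed with the term for ribosomal RNA and in the 4 leukemias without such a library. *Relb*, its partner in the second NF-kB route, was also lower in 9 of 9 leukemias, with a median of 0.603 FPKM in VEH and 0.431 in DEX libraries. In the fit without a filter its log2 change was -0.58 (SE 0.17, adjusted p = 0.0375), one of 10 members called there beside 6.28% of 28697 genes. *Relb* rests on few reads, with 2 counts in the DEX library of JW14. *Rela* (log2 change 0.055) and *Nfkb1* (0.066) had adjusted p of 0.597 and 0.620.

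Of the 5 kinases, 1 was higher in DEX columns, 2 were lower and 2 did not pass. *Map3k14* (ENSMUSG00000020941, chromosome 11, 103219762 to 103267472) was at 1.62 to 2.16 FPKM in VEH (median 2.04) and 1.16 to 2.15 in DEX libraries (median 1.49), lower in 8 of 9 leukemias and higher in JW14 (1.62 to 2.15 FPKM). Its log2 change was -0.34 (SE 0.098, adjusted p = 0.0438), and -0.42 (0.00932) without JW14; leaving out any of 20M, 2M, 73A, 73M, 78A, 8633 or JW81 brought the adjusted p to between 0.0699 and 0.0967. *Chuk* (ENSMUSG00000025199, chromosome 19, 44073335 to 44107480) was at 13.1 to 18.6 FPKM in VEH and 12.5 to 14.7 in DEX libraries, lower in 8 of 9, with a log2 change of -0.17 (SE 0.051, adjusted p = 0.0481). With 1 leukemia left out, this call was kept without 78A and lost without any other (adjusted p of 0.0648 to 0.0982). It was also lost in the 4 leukemias without ribosomal RNA libraries (log2 change -0.073, adjusted p = 0.585). The same held in the fit without a filter (adjusted p = 0.0892) and with leukemia 4638 added. *Ikbkg* (ENSMUSG00000004221, chromosome X, 74393290 to 74453854) was at 7.59 to 9.55 FPKM in VEH and 7.22 to 11.5 in DEX libraries, higher in 8 of 9, with a log2 change of 0.23 (SE 0.061, adjusted p = 0.0347). It did not pass without 20M, 2M, 73A, 73M, JW14 or JW81 (0.0532 to 0.0780), nor in the fit without a filter (adjusted p = 0.139). Of the *Ikbkg* exon bases, 5.15% are shared with *G6pdx*, at 18.2 FPKM. *Ikbkb* and *Ikbke* had log2 changes of 0.026 and 0.11 and did not pass.

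Among the adaptors, *Birc3* (ENSMUSG00000032000, chromosome 9, 7848699 to 7873186) was at up to 8.86 FPKM in VEH (median 6.89, lowest in 2M) and 6.53 to 9.59 in DEX libraries (median 8.63). It was higher in 9 of 9 leukemias, by a factor of 1.03 in 78A to 1.34 in JW14, with a log2 change of 0.25 (SE 0.052, adjusted p = 0.0123). Without a filter its adjusted p was 0.0824 and with the term for ribosomal RNA 0.0541. Its neighbour *Birc2* was higher in 8 of 9, by a log2 change of 0.18 that missed the threshold (adjusted p = 0.0594). *Traf3* was at -0.17 (0.0682) and *Cyld* at 0.25 (0.0823). *Traf2* was at -0.039. *Traf1* was lower in 9 of 9 leukemias at a VEH median of 0.0802 and a DEX median of 0.0516 FPKM, and did not pass without a filter (adjusted p = 0.0635). It had no counts in the DEX library of JW14, which allows up to 0.0414 FPKM.

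Of the other targets, *Cflar* (ENSMUSG00000026031, chromosome 1, 58711508 to 58758884) was at 7.02 to 14.3 FPKM in VEH (median 10.5) and 5.96 to 12.3 in DEX libraries (median 7.60), lower in 9 of 9 leukemias. The factor was 0.626 in JW81 to 0.883 in 73A, and the log2 change -0.33 (SE 0.058, adjusted p = 0.00603). *Icam1* was at 0.760 to 4.38 FPKM in VEH (median 2.52) and 0.490 to 3.80 in DEX libraries (median 1.51), lower in 9 of 9. It fell most in JW14, from 1.73 to 0.691 FPKM, and the log2 change was -0.61 (SE 0.11, adjusted p = 0.00627). Both passed with the term for ribosomal RNA and whichever leukemia was left out, but not in the 4 leukemias without such a library (adjusted p = 0.0933 for *Cflar* and 0.0880 for *Icam1*). *Tnfaip8* was at 5.26 to 25.4 FPKM in VEH (median 22.2) and 5.06 to 32.3 in DEX libraries (median 26.0), higher in 7 of 9, with a log2 change of 0.22 (SE 0.063, adjusted p = 0.0436). With 1 leukemia left out, its call was kept without 5C or JW14, and without any other leukemia the adjusted p was 0.0603 or more. It was also lost without a filter (0.183). *Gadd45b* was lower in 8 of 9 leukemias and *Ier3* in 5 of 9, and neither passed without a filter (log2 changes of -0.68 and -0.10, adjusted p = 0.123 and 0.899).

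*Tnf* had the largest decrease among the members that passed. It was at 2.36 to 9.01 FPKM in VEH (median 5.31) and 1.47 to 5.83 in DEX libraries (median 3.31), lower in 8 of 9 leukemias. In 73M, JW81 and 73A it was at factors of 0.426, 0.423 and 0.465 of the VEH value, whereas 8633 went from 2.36 to 2.67 FPKM. The log2 change was -0.71 (SE 0.14, adjusted p = 0.00843), a fold change of 0.609. It was -0.48 (adjusted p = 0.191) in the 4 leukemias without ribosomal RNA libraries. The adjacent *Ltb* was also lower in 8 of 9 leukemias, by a log2 change of -0.16 that did not pass (adjusted p = 0.164). *Lta* was lower in 7 of 9 and *Cd40* in 5 of 9, and neither passed without a filter (adjusted p = 0.400 and 0.999).

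**Figure D5:**
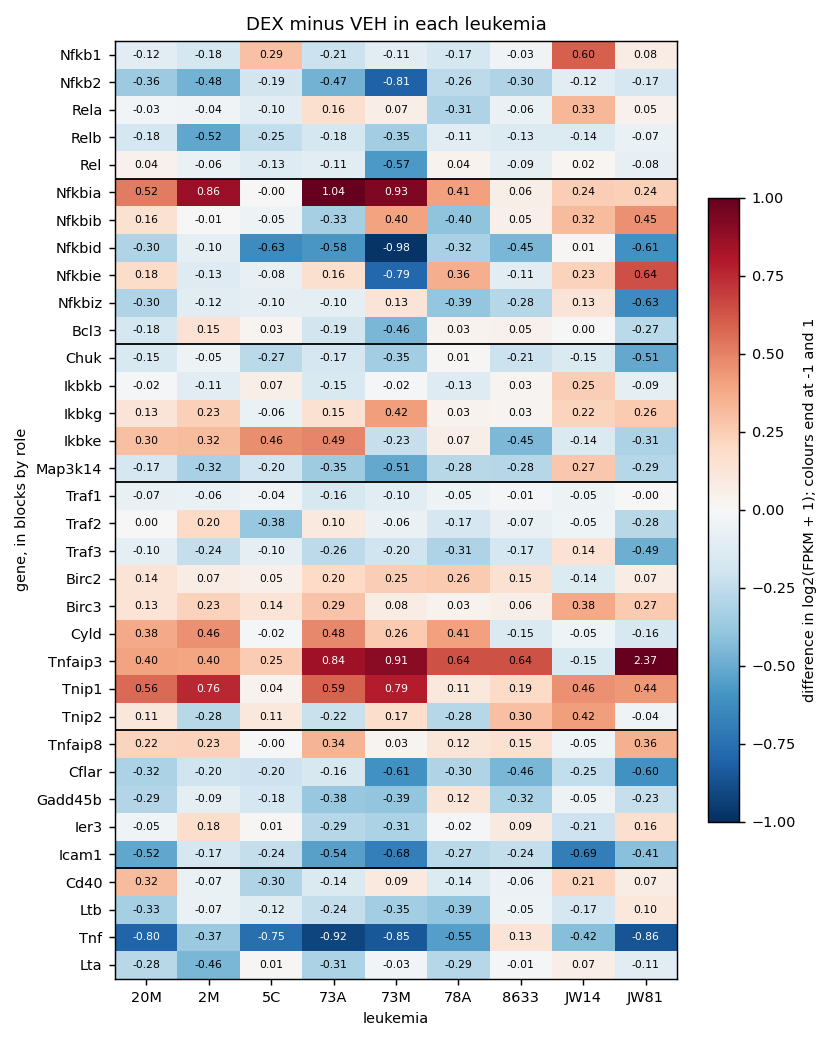
Difference between the DEX and VEH library in log2(FPKM + 1) for each of the 34 NF-kB genes (rows, in blocks by role) and each of the 9 leukemias (columns); red is higher in DEX and blue lower, and colours end at -1 and 1. *Tnfaip3* in JW81 stands at 2.37, rows of *Tnip1* and *Birc3* are above 0 in every leukemia, and rows of *Nfkb2*, *Relb*, *Cflar* and *Icam1* are below 0 in every leukemia.

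The leukemias did not take part equally. The mean log2(FPKM + 1) of the 6 genes called higher rose by 0.06 in 5C, by 0.18 to 0.22 in JW14, 8633 and 78A, and by 0.33 to 0.65 in 20M, 2M, 73M, 73A and JW81. That of the 7 genes called lower fell by between 0.19 (JW14) and 0.68 (73M). These means describe genes chosen for their change in the same libraries and are no test. The neutrophil list was also lower in DEX in 73M (-1.39), JW81 (-1.09), JW14 (-0.69), 73A (-0.51), 20M (-0.34) and 5C (-0.26), and higher in 2M (0.10), 8633 (0.57) and 78A (0.73). In 73M the erythroid and B lineage lists fell as well, by -2.47 and -0.99, and in 73A the erythroid list by -1.09. The part of these lists in the changes of the NF-kB genes was not tested.

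Of 56 further receptors, adaptors, kinases, targets and regulators, 42 were tested and 6 passed (14.3%, close to the 13.0% of all genes). *Tsc22d3*, encoding the glucocorticoid-induced leucine zipper protein, which is known to bind NF-kB, had the largest change of these: it was at 7.47 to 31.5 FPKM in VEH (median 14.8) and 11.1 to 95.8 in DEX libraries (median 41.6), with a log2 change of 1.11 (SE 0.20, adjusted p = 0.00701). *Traf6*, the ubiquitin ligase of the Toll-like receptor arm, and *Sharpin*, a subunit of the linear ubiquitin ligase, were higher by 0.28 and 0.24, each in 8 of 9 leukemias (adjusted p = 0.0372 and 0.0483). *Cd27*, a costimulatory receptor of the TNF receptor family, was lower by -0.41 and *N4bp1*, a negative regulator, by -0.44, each in 8 of 9 leukemias (adjusted p = 0.00623 and 0.0491). None of the 7 further target genes that could be tested passed in edgeR, with 2 at an unadjusted p under 0.05 and 1 called by DESeq2. Between leukemias, 32 of the 42 differed, beside 82.5% of all genes tested.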

How the data were processed

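Poly(A) RNA from bone marrow was sequenced in paired ends. The authors aligned reads with Bowtie 2 to mm10 and estimated abundance with RSEM, per the labels and the methods of the study; other versions and the annotation are not given in the sources used here. As deposited, the table holds an RSEM expected count for each gene and library and no FPKM, for which the design had also allowed; 68.3% to 74.5% of the nonzero values of a library were exactly whole as printed in the table, with no tolerance. All 20 columns were matched to a leukemia by name, and for the DEX columns of 2M, 73A and 4638 the last part of the name matches no label. Leukemia 4638, which the study's text does not count among its 9, was used for values and as an alternative only.

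Expected counts were rounded and fitted in edgeR 4.0.16 (R 4.3.3) with TMM factors, the quasi-likelihood test and Benjamini-Hochberg adjustment over the 11339 genes whose mean reached 1 FPKM. Terms were leukemia, which pairs the libraries because both come from the same leukemia, and column name. An adjusted p under 0.05 was called. Standard errors were derived from the F statistic. FPKM used merged exon lengths of GENCODE M21 (37693 genes) and library totals, and list means log2(FPKM + 1). A fold change on that scale understates changes of low genes. DESeq2 1.42.0 was an alternative, and scripts were tested on simulated data. What the codes at the end of the labels stand for is not stated, so p-values measure the spread between these libraries. Exact permutation tests over the 362880 orders of the leukemias were two-sided and run in Python 3.11.15 with scipy 1.17.1. The library preparation kit is not stated to keep the strand, so genes with overlapping exons cannot be told apart there.

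The members and the lists were chosen with earlier results of these data known, so no p was adjusted over the list alone. Named with full statistics were members past the threshold between columns, and members whose levels differed more than 4 times between leukemias and reached 1 FPKM. The 2 subsets of leukemias by ribosomal RNA (above 1 count per M), each left-out leukemia, 4638 added, RLE factors, other filters, a pseudocount of 0.1, TPM and a fit without the leukemia term were alternatives; the subset of 5 leukemias was chosen after seeing the data. The values of 1 counted pathway gene are not reported here.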

Additional observations from a re-analysis of the deposited data

Results flagged for a closer look

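In 82 sets of 9 leukemias (the level of each member, its DEX minus VEH difference, and the scores), the leukemia farthest from the others was compared with Dixon's critical value of 0.493. It was exceeded in 4 sets, where 4.1 would be by chance at 1 in 20. The DEX minus VEH difference of *Tnfaip3* in log2(FPKM + 1) was 2.37 in JW81 and -0.15 to 0.91 in the others (gap over range 0.580). That of *Rel* was -0.57 in 73M and -0.13 to 0.041 in the others (0.722), and that of *Map3k14* was 0.27 in JW14 and -0.51 to -0.17 in the others (0.564). The level of *Ikbkb* was 11.2 FPKM in 5C and 5.89 to 7.98 in the others (0.538). The DEX libraries of JW81, 73M and JW14 and the VEH library of 5C are among those with ribosomal RNA counts; the part of these in the 4 values was not tested.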

How the results depend on the processing

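The count of genes called between DEX and VEH columns was 1475. It was 654 to 2041 with 1 leukemia left out, being 654 without 20M, 716 without 73A, 739 without 2M, 847 without 73M and 966 without JW81; it was 465 with a term for ribosomal RNA libraries, 475 in the 4 leukemias without one, 15 in the 5 with one and 8 without leukemia as a block. For the 26 members the count of 13 became 8 at a mean of at least 5 FPKM (18 tested, beside 1126 of 7034 genes), 5, 3, 0 and 0 in the same settings (in the last, 10 had an unadjusted p under 0.05 in edgeR), and 8 to 13 with 1 leukemia left out, being 8 without each of 20M, 2M, 73A and 73M. The 6 other pathway genes became 10 with DESeq2 (beside 2169 of 11339 genes), 2 with the term, 2 in the 4 leukemias, 0 in the 5, 0 without the block (3 at an unadjusted p under 0.05) and 2 to 9 with 1 leukemia left out (2 without 20M, 2M, 73A or 73M, 3 without 8633, JW14 or JW81). Between leukemias the 9351 genes became 5932 at that filter, and the 20 members were 15 to 29 over the settings, 29 of 34 without a filter beside 13412 of 28697 genes. The DEX minus VEH difference of the member mean, -0.044, was -0.11 with a pseudocount of 0.1 and -0.098 in TPM, and its level of 2.43 was 1.87, 2.89 in TPM and 2.79 as a median. The correlations with marker lists gave 0 calls, and 1 in VEH columns alone and 1 in DEX columns alone. Of 460 pairs of a member and an alternative, 372 kept their side of the threshold, among them 10 uncalled values that changed sign, 83 lost the call, 5 gained it (*Birc2*, *Traf3* and *Cyld*) and 0 called values changed sign. Members whose call held with each leukemia left out were *Nfkb2*, *Nfkbia*, *Cflar*, *Icam1*, *Tnf*, *Tnip1*, *Birc3* and *Nfkbid*. Members near the floor of 3 counts (*Bcl3*, *Traf1* and *Relb* in JW14) are limited by depth. The causes were not tested.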

Other observations

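Leukemia 4638, which entered only an alternative fit, had the highest level of several members among the 10 leukemias of the table. *Nfkbie* was at 27.2 FPKM in its VEH and 47.9 in its DEX library, *Gadd45b* at 2.73 and 3.96, *Ier3* at 3.88 and 2.84, *Rel* at 2.02 and 2.27 and *Birc3* at 10.7 and 18.5. The mean log2(FPKM + 1) over the 34 genes was 2.78 in 4638, above the 2.16 to 2.62 of the other 9. Between its columns *Nfkbia* went from 26.0 to 70.8 FPKM, a factor of 2.72, and *Tnf* from 9.31 to 4.16, a factor of 0.447. *Nfkb2* was level, at 4.45 and 4.53 FPKM, and *Relb* too, at 1.23 and 1.22, unlike the 9 leukemias of the comparison, in each of which both were lower in DEX columns. Neither library of 4638 was among those with ribosomal RNA counts above 1 per M. The 7 marker lists of other cells were also higher in it than in any of the 9: the mean log2(FPKM + 1) was 4.33 for myeloid, 9.28 for neutrophil, 1.88 for B lineage, 3.598 for macrophage, 4.04 for erythroid and 1.76 for NK genes, against at most 2.92, 7.94, 1.07, 2.03, 3.27 and 0.78. For endothelial genes it was 1.227 against at most 1.213. The T lineage list was lower in it, at 3.54, than in any of the 9 (4.37 or more). Their part in the levels of the members was not tested.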
